A study of Mus musculus with 2 samples.

Results

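The genes described here encode 10 heterogeneous nuclear ribonucleoproteins (hnRNPs): Hnrnpa1, Hnrnpa2b1, Hnrnpa3, Hnrnpc, Hnrnpd, Hnrnpdl, Hnrnph1, Hnrnpk, Hnrnpl and Hnrnpu. They were chosen by gene name, and all 10 had reads in both libraries, of 16945 annotated genes with a read in either library. The study sequenced long cDNA reads from total RNA of adrenal gland in 2 libraries, both from female mice of the strain B6CASTF1/J, an F1 cross, aged 36 days. Both libraries belong to 1 group, with no treatment, no second genotype and no control, so each comparison below sets 1 library against the other. The labels give the libraries the biological replicate numbers 1 and 2. Their sample descriptions name different animals, while their library descriptions name the same one, so whether the libraries stand for 2 animals is not settled by the labels. Replicate 1 is stated to start from 1 µg of RNA.

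HnRNPs bind newly made RNA in the nucleus and act in splicing, transport, stability and translation of messenger RNA. Most carry RNA recognition motifs or KH domains, which contact RNA, and flexible glycine-rich stretches, which hold the proteins together in larger particles. Their own transcripts are spliced in several ways, and some hnRNPs lower their own level by producing transcripts that nonsense-mediated decay (NMD, the pathway that destroys transcripts with a stop codon far ahead of the last exon junction) removes.

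In mm10 the A/B group is represented here by Hnrnpa1 at chr15:103240432-103246692 (plus strand), Hnrnpa2b1 at chr6:51460932-51469894 (minus strand) and Hnrnpa3 at chr2:75659261-75669407 (plus strand). The others are Hnrnpc at chr14:52073377-52104028 (minus strand), Hnrnpd at chr5:99955935-99978938 (minus strand), Hnrnpdl at chr5:100033577-100039664 (minus strand) and Hnrnph1 at chr11:50376990-50386528 (plus strand), and further Hnrnpk at chr13:58391142-58403343 (minus strand), Hnrnpl at chr7:28808541-28822266 (plus strand) and Hnrnpu at chr1:178321108-178337797 (minus strand).

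The alternative stretches of coding sequence on which the isoform results turn are shown first. Each line reads 5′ to 3′ on the transcript strand, from GENCODE M21 transcripts (mouse build mm10), with the alternative bases in capitals between 12 bases of each neighbouring exon. The exons lie at chr5:99976534-99976590 and chr5:99963731-99963877 (Hnrnpd, minus strand), chr6:51467391-51467426 and chr6:51464428-51464547 (Hnrnpa2b1, minus strand), chr13:58396188-58396259 (Hnrnpk, minus strand) and chr14:52081789-52081827 (Hnrnpc, minus strand, where a donor site is used early or late).
Hnrnpd, 57 bases: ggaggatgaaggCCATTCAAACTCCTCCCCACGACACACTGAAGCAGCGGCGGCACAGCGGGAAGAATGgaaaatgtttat
Hnrnpd, 147 bases: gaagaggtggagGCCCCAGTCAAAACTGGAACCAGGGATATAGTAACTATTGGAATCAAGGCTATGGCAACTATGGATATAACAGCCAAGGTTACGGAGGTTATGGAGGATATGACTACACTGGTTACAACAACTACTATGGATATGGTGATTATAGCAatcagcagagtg
Hnrnpa2b1, 36 bases: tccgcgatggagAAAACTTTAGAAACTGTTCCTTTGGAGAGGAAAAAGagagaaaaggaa
Hnrnpa2b1, 120 bases: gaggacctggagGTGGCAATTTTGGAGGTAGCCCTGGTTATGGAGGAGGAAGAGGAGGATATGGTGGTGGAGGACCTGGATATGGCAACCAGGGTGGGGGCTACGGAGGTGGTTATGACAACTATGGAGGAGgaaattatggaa
Hnrnpk, 72 bases: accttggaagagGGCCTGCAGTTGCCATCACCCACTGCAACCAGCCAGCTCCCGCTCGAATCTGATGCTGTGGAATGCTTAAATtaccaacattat
Hnrnpc, 39 bases: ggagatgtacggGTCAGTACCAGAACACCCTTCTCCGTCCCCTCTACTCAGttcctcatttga

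A further pair of sequences carries the main finding on Hnrnpk. The first is the annotated transcript, with its 16-base microexon at chr13:58393853-58393868 in capitals, and the second is the form of nearly all read models, which hold 16 bases from chr13:58394060-58394075 in the same place. Each is shown with 30 bases of the exons on either side, minus strand, as read from GENCODE M21 transcripts.
Hnrnpk, annotated: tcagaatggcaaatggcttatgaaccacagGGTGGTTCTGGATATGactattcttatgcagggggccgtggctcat
Hnrnpk, read models: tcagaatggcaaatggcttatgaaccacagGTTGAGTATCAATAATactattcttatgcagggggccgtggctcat

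Replicate 1 held 1144572 reads of annotated genes and replicate 2 held 414588. Of these, 2705 and 1004 reads came from the hnRNP genes, a share of 0.236% and 0.242%. Markers of steroid-producing adrenal cortex (Cyp11a1, Star and 5 others) were all read in both libraries, with summed levels of 64044 and 82294 CPM (reads per 1000000 reads of annotated genes), as were all 6 markers of the chromaffin cells of the medulla, at 9957 and 6790 CPM. Of the cortex markers, Cyp11a1 went from 20811 to 41366 CPM and Hsd3b1 was also called higher in replicate 2, while Star and Mc2r were called lower and 3 did not pass the exact binomial test. Skeletal muscle markers summed to 927 CPM in replicate 1 and 7.24 CPM in replicate 2, and 5 adipocyte markers to 2995 and 5779 CPM, while 3 kidney markers had no read. Of the adipocyte markers, Fabp4 (771 and 2914 CPM) and Cidea (793 and 1606 CPM) were called higher in replicate 2, and Ucp1 (787 and 671 CPM), Plin1 (348 and 277 CPM) and Adipoq (295 and 311 CPM) did not pass. In bulk tissue, fewer cells of a type and less RNA per cell cannot be told apart. The part of these markers in the differences between libraries below was not tested.

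Hnrnpa2b1 and Hnrnpk were the most abundant of the genes and Hnrnph1 the least, across an 18.5-fold range of mean levels. Levels are in CPM and are not divided by length, since a long read stands for 1 cDNA molecule. At these depths, a count of 3 reads, the limit that a count of 0 allows, corresponds to 2.62 CPM in replicate 1 and 7.24 CPM in replicate 2. The median of the 10 mean levels was 147 CPM, against 31.9 CPM over the 9885 genes with at least 10 reads in the 2 libraries together.

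Hnrnpa2b1, which encodes the A2 and B1 proteins that bind RNA through paired recognition motifs, had 696 and 378 reads, or 608 and 912 CPM (760 ± 215, SD, n = 2). Hnrnpk, the KH-domain protein that binds C-rich RNA and single-stranded DNA, had 655 and 204 reads, or 572 and 492 CPM (532 ± 56.7, SD, n = 2). Hnrnpu, also known as scaffold attachment factor A, had 380 and 101 reads, or 332 and 244 CPM (288 ± 62.5, SD, n = 2). Counted by all reads, these 3 genes did not overlap each other or any gene below them in the order. Counted by full-length reads (defined below), the order at the top turned: Hnrnpa2b1, at 534 and 357 per 1000000 full-length reads (mean 445), came below Hnrnpk (587 and 503, mean 545), and its values overlapped those of both Hnrnpk and Hnrnpu (360 and 284).

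In the middle of the order stood 6 genes with mean levels from 156 down to 87.9 CPM. Hnrnpd, the AU-rich element binding protein AUF1, had 163 and 150 CPM, and Hnrnpc, which binds U-rich stretches of nascent RNA, had 150 CPM in both libraries. Hnrnpa1, a widely studied splicing repressor, had 163 and 125 CPM. Neighbours among these genes overlapped in their library values, so their order is not resolved by these libraries.
Hnrnpl, which binds CA-rich RNA, had 106 and 147 CPM, and Hnrnpa3, a close relative of Hnrnpa2b1, had 148 and 65.1 CPM. Hnrnpdl, a paralog of Hnrnpd, was at 86.5 and 89.2 CPM. Hnrnph1, which binds G-rich runs, was lowest in both libraries, at 34.1 and 48.2 CPM, below every library value of the other 9 genes. It ranked 4178 among all genes by mean level, and Hnrnpa2b1 ranked 161.

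**Figure D1:**
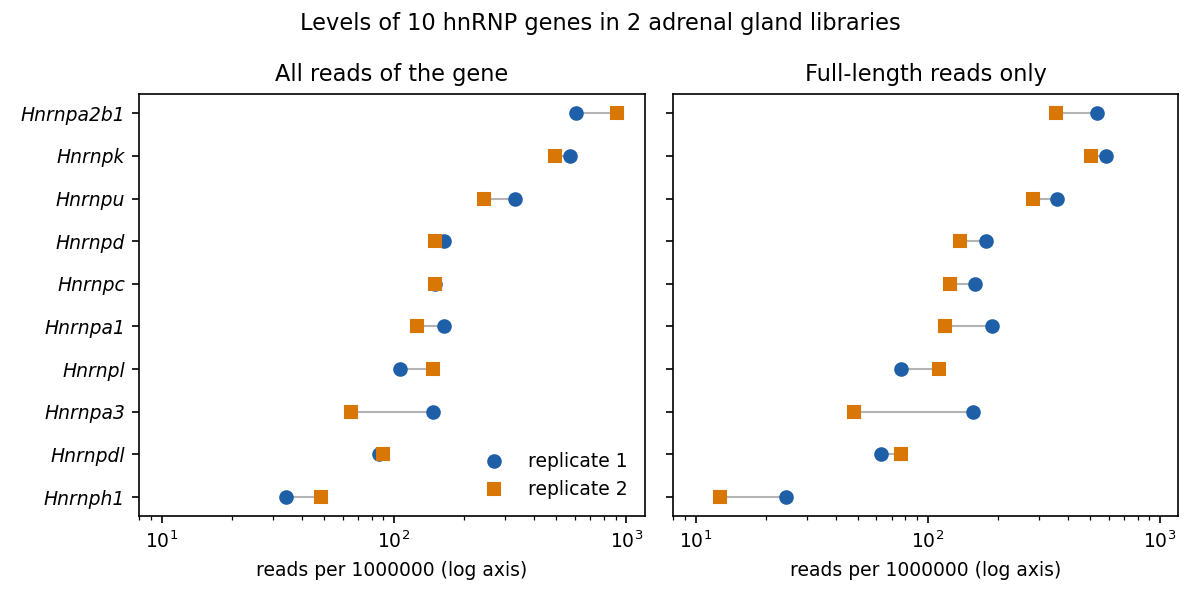
Level of each hnRNP gene (rows, ordered by mean of all reads) in replicate 1 (circles) and replicate 2 (squares), in reads per 1000000 on a log axis, from all reads of annotated genes (left) and from full-length reads only (right). Hnrnpa2b1 is higher in replicate 2 on the left (608 and 912) and lower in replicate 2 on the right (534 and 357).

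Of the 10 genes, 1 had more reads in replicate 2 and 1 had fewer by the exact binomial test with Benjamini-Hochberg adjustment over all 9885 genes, and 4 had an unadjusted p under 0.05, as had 2485 of all genes tested. Among all genes tested, 14.0% were called different, so 2 of 10 is near the background. The test covers counting error between these 2 libraries, not the spread between animals. Hnrnpa2b1 was 1.58-fold higher in replicate 2 (95% interval 1.39 to 1.79, adjusted p = 2.48e-10, exact binomial test). Hnrnpa3 was lower there, at 0.463-fold (0.297 to 0.698, adjusted p = 0.0012, exact binomial test).

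The call for Hnrnpa2b1 turned round when partial reads were left out. Full-length reads are those of models in the classes Known, NIC and NNC. Known models hold every splice junction of an annotated transcript. NIC models hold an unannotated chain of junctions with new combinations of known splice sites, and NNC models one with a new splice site. The count went by class, so it takes in some chains of few exons, such as a Hnrnpa2b1 model of 2 exons. Counted by full-length reads, Hnrnpa2b1 had 500 reads in replicate 1 and 112 in replicate 2, or 534 and 357 per 1000000 full-length reads. Replicate 2 was then lower, at 0.676-fold (0.546 to 0.831, adjusted p = 0.0017, exact binomial test). Hnrnpa3 was lower in replicate 2 under both countings, at 0.310-fold in full-length reads (146 and 15 reads, adjusted p = 2.24e-05, exact binomial test).

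The other 8 genes did not pass the threshold in either counting. Hnrnpl came nearest among those with more reads in replicate 2, at 1.46-fold (1.06 to 2.01, adjusted p = 0.095, exact binomial test). Without the class Genomic, which holds models that match no complete splice pattern, it was 1.82-fold higher (adjusted p = 0.0043, exact binomial test). Of its reads, 19 in replicate 1 and 0 in replicate 2 were of that class. Hnrnpu was at 0.771-fold (0.613 to 0.963, adjusted p = 0.10, exact binomial test). With libraries scaled by their total reads it passed the threshold (adjusted p = 0.040, exact binomial test).

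**Figure D2:**
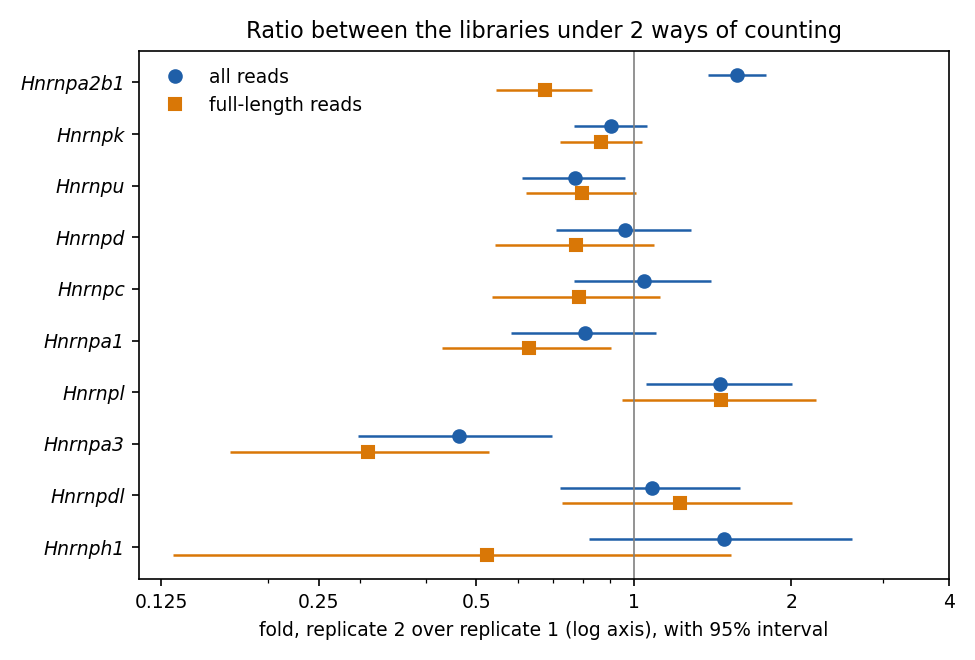
Fold between the libraries (replicate 2 over replicate 1, log axis, bars 95% intervals from counting error) for each hnRNP gene, from all reads (circles) and from full-length reads (squares). The 2 intervals of Hnrnpa2b1 lie on opposite sides of 1, at 1.39 to 1.79 and 0.546 to 0.831.

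Most partial reads of Hnrnpa2b1 were of models that lack its 5′ part. Bounds in brackets after a share are Wilson 95% intervals, here and below. Full-length reads were 71.8% (68.4 to 75.1) of the gene's reads in the first library and 29.6% (25.3 to 34.4) in the second, without overlap of the intervals. Over the 3694 genes that both libraries covered with 20 or more reads, the median full-length share was 89.0% and 86.9%. Models that lack 3′ junctions of an annotated transcript (class ISM, prefix type) held 53 reads of Hnrnpa2b1 in replicate 1 and 15 in replicate 2. Models that lack 5′ junctions (class ISM, suffix type) held 121 and 197 reads. The most read of the suffix models had 2 exons and 578 bases, with 34 and 92 reads. A second 2-exon model of 396 bases held 67 reads in replicate 2. A 1-exon model of 425 bases added 52 reads of class Genomic in replicate 2, against 3 reads of that class in replicate 1. Model ends were placed on annotated ends in many cases, so these lengths are those of the models and not of single reads. No RNA quality value was used here, and its part in this was not tested.

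The full-length share was lower in replicate 2 for 9 of the 10 genes. The intervals of the 2 libraries were apart for 6 of them: Hnrnpa1, Hnrnpa2b1, Hnrnpa3, Hnrnpc, Hnrnpd and Hnrnph1. How many of the 3694 genes compared above were lower in replicate 2, or had intervals apart, was not counted. The counts of 9 and 6 of the 10 genes therefore cannot be set against a share over all genes. The median full-length share of the 3694 genes was 89.0% and 86.9%. Over the 10 genes together the share was 80.6% in replicate 1 (79.1 to 82.1) and 55.4% in replicate 2 (52.3 to 58.4). Hnrnpa2b1, at 29.6% in replicate 2, gave 378 of the 1004 reads behind the second value. Over all annotated genes, full-length reads were 937121 of 1144572 in replicate 1 and 313831 of 414588 in replicate 2. Hnrnpu was at 88.7% and 88.1%, and Hnrnpk stood at 84.0% and 77.5%. Hnrnpa1 went from 94.7% (90.4 to 97.1) to 71.2% (57.7 to 81.7). Hnrnph1 had 23 full-length reads of 39 in replicate 1 and 4 of 20 in replicate 2, so its isoforms could not be compared.
Hnrnpdl stood at 59.6% and 64.9%, the 1 gene with a higher value in replicate 2, and Hnrnpl at 59.5% and 57.4%. In Hnrnpk the reads of class Genomic were all in 1-exon models in the last exon, with 66 reads in replicate 1 and 26 and 15 in replicate 2. In Hnrnpl an 18-read Genomic model in replicate 1 spanned 32 bases at the end of the gene.

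**Figure D3:**
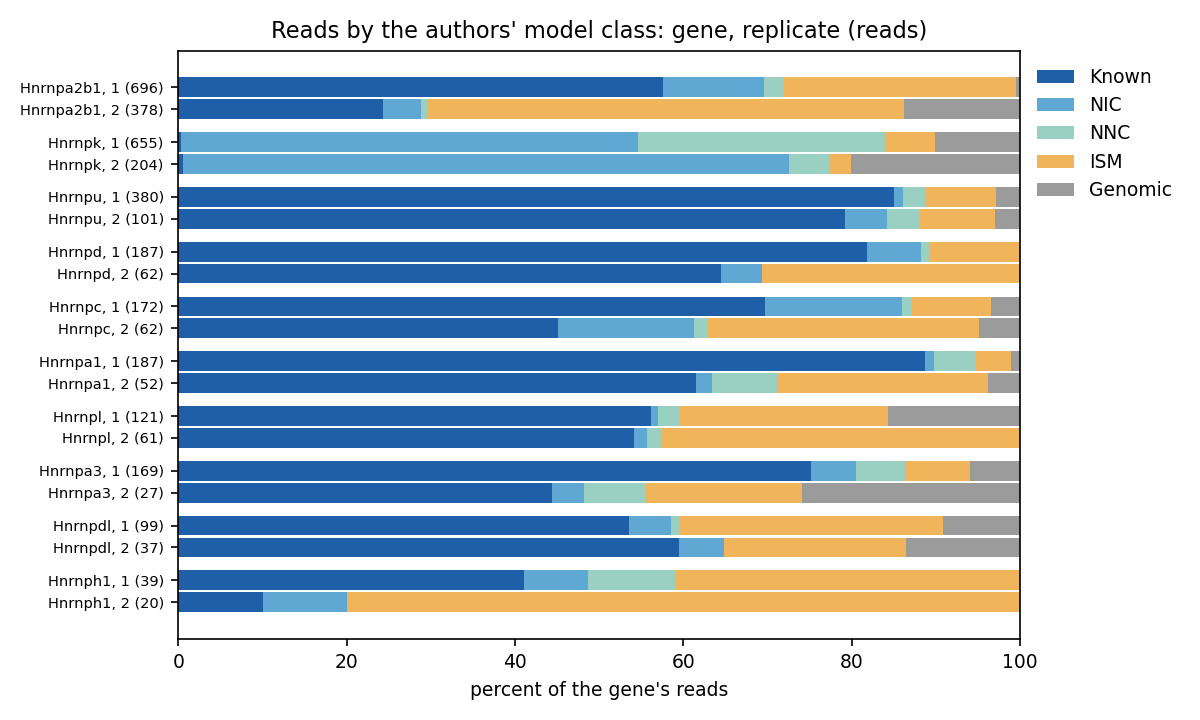
Share of each hnRNP gene's reads (percent, stacked bars) by the authors' model class, for replicate 1 and replicate 2, with the number of reads in brackets. Hnrnpk has almost no Known reads (0.305% and 0.490%), and the ISM and Genomic share of Hnrnpa2b1 is larger in replicate 2.

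Hnrnpk had almost no read of an annotated transcript. Of its 550 and 158 full-length reads, 2 and 1 were Known, which is 0.364% (0.0998 to 1.32) and 0.633% (0.112 to 3.50). The median over 3015 genes, those that both libraries covered with 20 or more full-length reads, was 96.3% in replicate 1 and 96.4% in replicate 2, and 23 of these genes (0.763%) had less than 5% with the libraries pooled. Both Known transcripts, Hnrnpk-206 and Hnrnpk-217, are annotated as retained introns, so no Known read belonged to any of the 18 annotated coding transcripts of the gene.

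The 2 most read models of Hnrnpk departed from their nearest annotated transcripts at a single place. In 8 annotated transcripts, all coding, exon 13 of 16 (counted in Hnrnpk-201) is the 16-base microexon shown above. The intron before it (chr13:58393869-58394075) was held by 0 of 586 reads spanning the region in replicate 1 (0 to 0.651) and by 0 of 161 in replicate 2 (0 to 2.33). By the limit of 3 reads, these counts of 0 allow shares of up to 0.512% and 1.86%. The intron after it was held by 1 read in replicate 1 and 0 in replicate 2.
In place of both introns, 565 reads (96.4%, 94.6 to 97.6) of replicate 1 and 156 reads (96.9%, 92.9 to 98.7) of replicate 2 held a single intron of 285 bases at chr13:58393775-58394059. The upstream exon of these models runs 16 bases past its annotated end (chr13:58394076-58394159, 84 bases), so the spliced length is the same as with the microexon. Exact skipping of the microexon, with both neighbouring exons at their annotated ends, was seen in 4 and 3 reads. A further 12 reads in replicate 1 used an intron of 296 bases to the same acceptor.

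The 16 bases of the microexon and the 16 bases held by the models were identical at 8 positions. Both the intron of the models and the 2 annotated introns begin with GT and end with AG. No exon in the GENCODE M21 annotation has an edge at the new donor, yet the authors' tables gave the same chain of junctions the class NNC in replicate 1 (175 reads) and NIC in replicate 2 (69 reads). Read in the frame of Hnrnpk-201, whose protein has 463 residues, the models' bases hold the stop codon TAA within the 16 bases, after 368 residues. The deposited tables give models and not read sequences, so whether the reads held the bases of the microexon or those of the models was not tested.

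Short annotated exons were seldom found in the models over all genes. Over internal exons of annotated coding transcripts with at least 50 spanning reads in the 2 libraries together, the median inclusion was 0% for 38 exons of 1 to 10 bases and 0% for 83 exons of 11 to 20 bases. It was 88.7% for 275 exons of 21 to 30 bases, 95.2% for 1041 of 31 to 45 bases and 97.5% for 2411 of 46 to 60 bases. For 45 of the 83 exons of 11 to 20 bases, the one of Hnrnpk among them, more than 90% of spanning reads held neither the exon nor its exact skipping. The same was true of 24 of 38 exons of 1 to 10 bases and 81 of 275 of 21 to 30 bases. Among longer exons it was true of 249 of 1041 (31 to 45 bases) and 474 of 2411 (46 to 60 bases), so this state was not limited to short exons. How many of these exons adrenal gland uses was not tested.

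**Figure D4:**
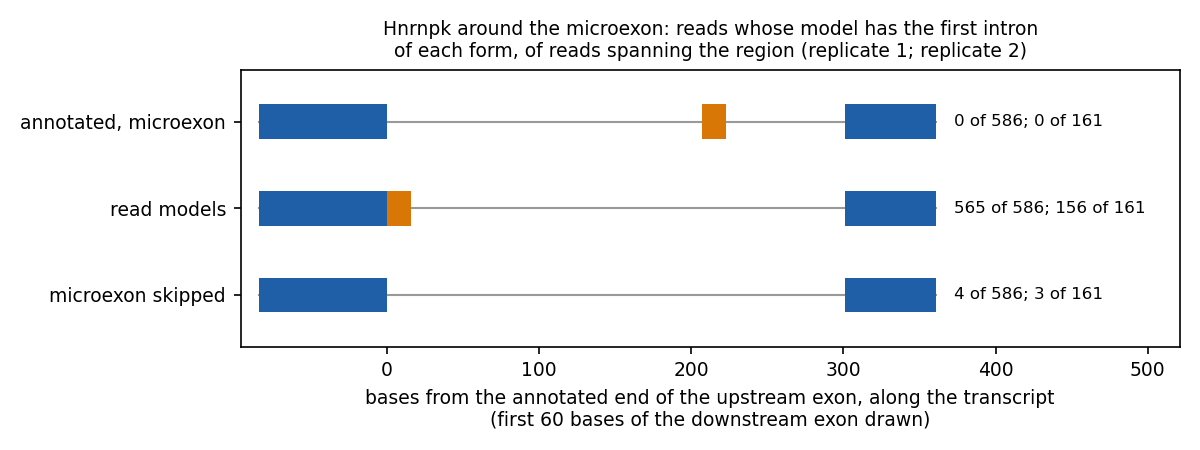
Hnrnpk between 2 neighbouring coding exons (blue), in bases from the annotated end of the upstream exon, with the 16 bases that differ in orange and introns as lines. The 16-base extension is in 565 of 586 and 156 of 161 spanning reads, and the intron that leads to the annotated microexon is in none.

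Apart from this place, Hnrnpk was spliced as annotated in several forms. The most read chain, nearest to Hnrnpk-224, held 175 of 550 full-length reads (31.8%) and 69 of 158 (43.7%). The second, nearest to Hnrnpk-201, held 163 and 43 reads. They were followed by a chain with another 5′ intron (70 and 9 reads) and one nearest to Hnrnpk-232 (57 and 16 reads). The 72-base coding exon was included in 92.2% of informative reads in replicate 1 (511 of 554) and 94.9% in replicate 2 (149 of 157).
At the last intron, 2 acceptors lie 60 bases apart. The nearer took 293 of 588 reads (49.8%) and 101 of 163 (62.0%), and the farther took 295 (50.2%) and 62 (38.0%). At the 5′ end, the donor of the longer of 2 annotated introns took 395 of 549 reads (71.9%) and 127 of 157 (80.9%).

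The coding isoforms of the other genes are described in order of their relatedness, beginning with the A/B proteins. A coding form was counted where a full-length model held the whole annotated coding sequence with its junctions, whatever its untranslated ends. Protein names and lengths below stand for these coding sequences in RNA, and no protein was measured. Hnrnpa1 was read mainly in the form coding for 320 residues, with 121 of 177 full-length reads (68.4%, 61.2 to 74.8) and 26 of 37 (70.3%, 54.2 to 82.5). Of these, 115 and 25 reads were of Hnrnpa1-202.

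Hnrnpa2b1 was read mainly in the form coding for the A2 protein. The 341-residue A2 form held 355 of 500 full-length reads (71.0%, 66.9 to 74.8) and 73 of 112 (65.2%, 56.0 to 73.4). This form is coded by Hnrnpa2b1-204, described below, and Hnrnpa2b1-202 (29 and 7 reads). The B1 form of 353 residues (Hnrnpa2b1-203 among its models), which adds 12 residues from the 36-base exon near the start of the protein, held 43 reads (8.60%) and 8 reads (7.14%). A 301-residue form without the 120-base glycine-rich exon held 58 reads (11.6%, 9.08 to 14.7) and 26 reads (23.2%, 16.4 to 31.8), so its interval in replicate 2 lay above that in replicate 1. Its annotated transcripts are Hnrnpa2b1-210, with 43 of 401 Known reads (10.7%) and 16 of 92 (17.4%), and Hnrnpa2b1-201, with 14 and 8. The test of the 120-base exon itself, included in 502 of 588 reads (85.4%) and 95 of 127 (74.8%), gave an adjusted p of 1 (Fisher's exact test over 3411 exons of all genes, unadjusted p = 0.0054).

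A long read shows both exons of Hnrnpa2b1 on 1 molecule. In replicate 1, 392 of 521 reads skipped the 36-base exon and held the 120-base exon, 73 skipped both, 48 held both and 8 held the first alone. In replicate 2 the counts were 75, 28, 9 and 1 of 113. The commonest combination, A2 with the 120-base exon, was thus 75.2% and 66.4% of reads, and B1 without that exon was the rarest in both libraries.

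Downstream of the stop codon, Hnrnpa2b1 also varied. Hnrnpa2b1-204 held 273 of 500 full-length reads (54.6%) and 55 of 112 (49.1%), and was the leading isoform in both. A 136-base exon beyond the coding sequence was included in 55 of 141 reads that include or skip it (39.0%, 31.3 to 47.2) and 25 of 114 (21.9%, 15.3 to 30.4). This difference had an unadjusted p of 0.0043 and an adjusted p of 1 (Fisher's exact test). Most reads from the donor before this exon did neither: 456 of 624 (73.1%) and 185 of 316 (58.5%) went to a nearer acceptor. The intron that leads to the exon took 79 of 624 (12.7%) and 40 of 316 (12.7%). In replicate 2, a 2-exon partial model held 67 of the 89 reads that skip the 136-base exon. A 3-exon partial model held 17 of the 25 reads that include it. From full-length reads only, the mean inclusion of the 2 libraries was 33.8%, against 30.5% from all reads. A 73-base version of that exon, not annotated with these edges, was included in 7 of 93 reads and 4 of 93.

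Hnrnpa3 was read in 2 coding forms that differ at the start of the coding sequence. The 379-residue form held 81 of 146 full-length reads (55.5%, 47.4 to 63.3) and 11 of 15 (73.3%, 48.0 to 89.1). The 357-residue form held 58 reads (39.7%, 32.2 to 47.8) and 4 reads (26.7%, 10.9 to 52.0). Most of these reads were of Hnrnpa3-204 (75 and 10) and Hnrnpa3-203 (50 and 2). With 15 full-length reads in replicate 2, a difference between the libraries was not detectable at this depth.

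Hnrnpc, whose C1 and C2 proteins differ by 13 residues, was read in 5 coding forms. The 39 bases shown above, which make the longer C2 type, were included in 26 of 152 reads (17.1%, 11.9 to 23.9) and 7 of 42 (16.7%, 8.32 to 30.6). A second choice lies among 3 acceptors within 24 bases. The nearest of them, which gives the longest exon, took 86 of 154 reads (55.8%) and 23 of 45 (51.1%). The middle acceptor took 52 reads (33.8%) and 15 (33.3%), and the farthest 16 (10.4%) and 7 (15.6%).
By protein length, the 300-residue form led with 67 of 150 full-length reads (44.7%) and 14 of 39 (35.9%), followed by 293 residues with 46 reads (30.7%) and 13 (33.3%). The 313-residue form had 15 and 4 reads, the 292-residue form 10 and 6, and the 306-residue form 5 and 1. The annotated transcripts behind the first 4 of these forms were Hnrnpc-205 (57 and 10 reads) with Hnrnpc-207 (6 and 2), Hnrnpc-211 (34 and 9), Hnrnpc-201 (11 and 3) and Hnrnpc-206 (9 and 4). A 26-base exon of the 5′ untranslated region was included in 118 of 142 reads (83.1%) and 27 of 35 (77.1%).

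Hnrnpd was a mix of 4 coding forms, with 39.5% of full-length reads at most in any 1 of them. These forms are the combinations of the 57-base and 147-base exons shown above. The 355-residue protein, with both exons, held 58 of 167 full-length reads (34.7%, 27.9 to 42.2) in replicate 1 and 7 of 43 (16.3%, 8.12 to 29.97) in replicate 2. The 336-residue protein, with the 147-base exon alone, held 42 (25.1%) and 17 (39.5%, 26.4 to 54.4). The 306-residue protein, with the 57-base exon alone, held 37 (22.2%) and 13 (30.2%), and the 287-residue protein, with neither, 29 (17.4%) and 6 (14.0%).
Neither exon taken alone passed the test between libraries (adjusted p = 1 for both, Fisher's exact test). The 57-base exon was included in 102 of 183 reads (55.7%, 48.5 to 62.7) and 21 of 45 (46.7%, 32.9 to 60.9), and the 147-base exon in 107 of 181 (59.1%, 51.8 to 66.0) and 29 of 51 (56.9%, 43.3 to 69.5). Among reads that cover both exons, 62 of 180 held both in replicate 1 and 7 of 44 in replicate 2, while 44 and 18 held the 147-base exon alone. Hnrnpd-211, the isoform with most reads in the 2 libraries together, held 32.3% and 14.0% of full-length reads (unadjusted p = 0.022, adjusted p = 0.58, Fisher's exact test). In replicate 2 it was not the most read: Hnrnpd-203 held 39 reads in replicate 1 and 16 in replicate 2 (23.4% and 37.2%), and Hnrnpd-201 held 33 and 13 (19.8% and 30.2%). Hnrnpd-202 held 27 and 5.

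Hnrnpdl was divided among a coding form, an NMD form and a form that keeps introns at the 3′ end. Hnrnpdl-202, coding for 420 residues, held 18 of 59 full-length reads (30.5%, 20.3 to 43.1) and 14 of 24 (58.3%, 38.8 to 75.5), with an unadjusted p of 0.025 and an adjusted p of 0.59 (Fisher's exact test). Hnrnpdl-207, annotated as coding with an incomplete start and without the last introns, held 22 reads and 2 reads, so it was the most read isoform in replicate 1. The retained-intron transcript Hnrnpdl-204 had 0 and 2 reads. The 105-base exon beyond the stop codon, which marks the NMD form, was included in 18 of 40 reads (30.7% to 60.2%) and 9 of 29 (17.3% to 49.2%).

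Hnrnpl and Hnrnpu each gave 1 main coding form. The 586-residue protein of Hnrnpl, coded by Hnrnpl-201, held 61 of 72 full-length reads (84.7%, 74.7 to 91.2) and 26 of 35 (74.3%, 57.9 to 85.8). Hnrnpl-209, annotated as coding with an incomplete start, held 3 (4.17%) and 5 (14.3%), and the 456-residue form 3 and 1. Hnrnpu-201, coding for 800 residues, held 321 of 337 (95.3%, 92.4 to 97.1) and 80 of 89 (89.9%, 81.9 to 94.6). Hnrnph1 had 14 of 23 reads for its 449-residue protein and 3 for a 472-residue form in replicate 1, and 2 of 4 for the first in replicate 2. Its annotated transcripts were Hnrnph1-201 (10 and 2 reads), Hnrnph1-202 (3 and 0) and the noncoding Hnrnph1-204 (2 and 0) and Hnrnph1-217 (1 and 0).

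**Figure D5:**
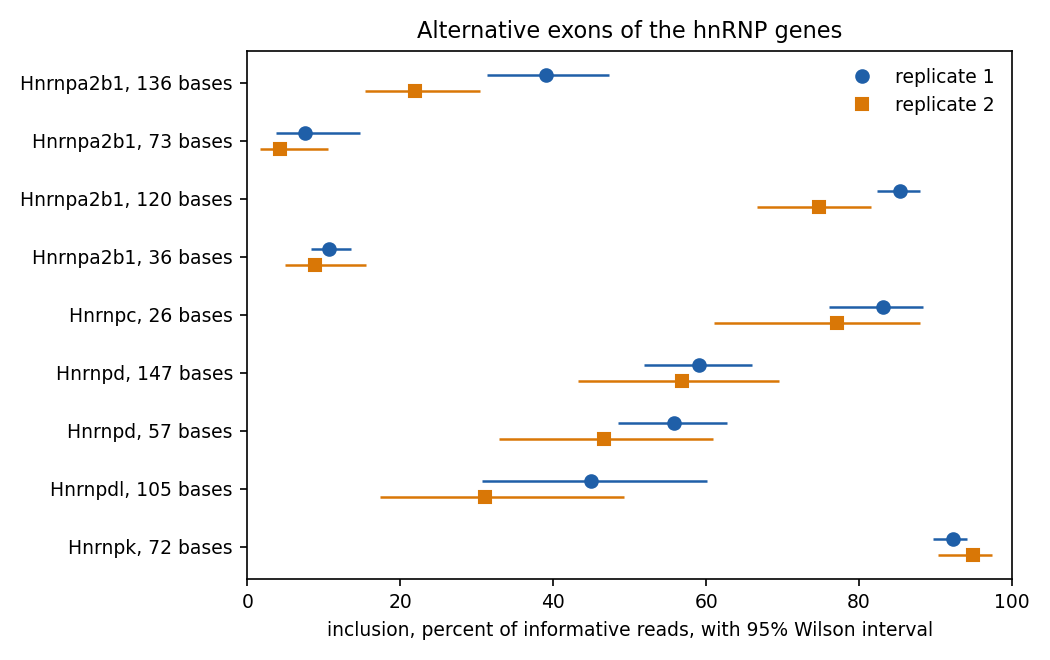
Inclusion of 9 alternative exons of the hnRNP genes (percent of reads that include or skip the exon) in replicate 1 (circles) and replicate 2 (squares), with 95% Wilson intervals. The Hnrnpd exons lie near the middle (46.7% to 59.1%) and the 72-base exon of Hnrnpk near full inclusion (92.2% and 94.9%).

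Across the genes, no test between libraries of isoform shares passed the adjusted threshold. For the leading isoform, the one with most full-length reads in the 2 libraries together, 8 of the 10 genes had enough full-length reads (20 or more per library), and 0 were called by Fisher's exact test, with 3 at an unadjusted p under 0.05, against 1.14% called and 201 at that unadjusted p of 2799 genes. For alternative exons with at least 20 informative reads in each library, 0 of 22 were called, with 3 at an unadjusted p under 0.05, against 0.0293% called and 49 at that unadjusted p of 3411 exons. The leading isoform took 91.9% and 91.3% of full-length reads in the median gene tested. Hnrnpu, at 95.3% and 89.9%, lay near this, and the leading isoforms of the other 9 genes held between 30.5% and 84.7% in replicate 1 and between 14.0% and 74.3% in replicate 2.

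Annotated noncoding transcripts made up a small part of the Known reads: 47 of 1429 (3.29%, 2.48 to 4.35) in replicate 1 and 16 of 342 (4.68%, 2.90 to 7.46) in replicate 2. Of 130 annotated transcripts of the 10 genes, 42 were read, 28 of them coding and 14 noncoding. The noncoding reads lay mostly in Hnrnpa1 and Hnrnpdl. Over 2648 protein-coding genes with at least 20 Known reads in each library, the median noncoding share was 0% in both, and 94 genes (3.55%) exceeded 10% in both, a level passed by both of these genes.

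In Hnrnpa1, the NMD transcript Hnrnpa1-203 held 18 of 166 Known reads (10.8%, 6.97 to 16.5) and 7 of 32 (21.9%, 11.02 to 38.8). It carries the coding sequence of the 320-residue protein. After the stop codon, an intron of 2317 bases stands where Hnrnpa1-202 has one of 227 bases. The NMD transcript has 11 exons against 10 in Hnrnpa1-202, so this intron is not their only difference. That longer intron was in 23 of 183 reads (12.6%) and 9 of 42 (21.4%). In Hnrnpdl, noncoding transcripts held 13 of 53 Known reads (24.5%, 14.9 to 37.6) and 6 of 22 (27.3%, 13.2 to 48.2), and Hnrnpdl-201, of the NMD type, held 13 and 4 of them. Hnrnpa2b1-209, also of the NMD type, held 5 and 1 reads. Hnrnpa3, Hnrnpc and Hnrnpd had no Known noncoding read among 127, 120 and 153 in replicate 1.

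Models outside the annotation were numerous but mostly rare. The 10 genes had 161 distinct unannotated chains of junctions with 752 reads in replicate 1 and 214 in replicate 2, of which 107 rested on 1 read. Of the 161, 20 were found in both libraries with at least 2 reads in 1 of them, and these held 598 and 175 reads. Hnrnpk accounted for 8 of the 20 and for 505 and 146 of their reads. All 41 distinct chains of Hnrnpk among the 161 depart from the annotation at the microexon described above, joined with other splice choices.
Outside Hnrnpk, the most read was a Hnrnpa2b1 chain with 43 and 9 reads, which joins the body of Hnrnpa2b1-204 to a farther 3′ exon through an annotated intron and keeps the 341-residue coding sequence. A like chain with the B1 exon had 7 and 2 reads, and one that skips the 120-base exon in the B1 context had 5 and 1. In Hnrnpa3, 2 chains with an unannotated intron of 2699 bases toward the 3′ end (12 of 156 reads and 3 of 20 with that intron) had 6 and 2 reads and 5 and 1 reads. In Hnrnpc, a chain that pairs the middle acceptor with Hnrnpc-207 had 10 and 3 reads, and chains nearest to Hnrnpc-201 and Hnrnpc-202 had 4 and 1 reads each. Hnrnpd had 1 such chain (2 and 1 reads) and Hnrnpu 1 (3 and 4 reads), in which an annotated intron is kept. Of the 20, 9 kept an annotated coding sequence whole.

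Other RNA-binding proteins of the hnRNP class were read as well. All 28 listed genes were read in at least 1 library and 27 in both, with a median of 44.6 CPM. The most abundant were Hnrnpf (571 and 302 CPM), Pcbp1 (439 and 302), Ewsr1 (218 and 248) and Hnrnpab (258 and 171). By the exact binomial test, 2 of 27 tested were higher in replicate 2, 7 were lower and 18 did not pass, against 14.0% called of all 9885 genes, with a median log2 ratio of -0.18 against -0.01 over all genes. Hnrnpf, a relative of Hnrnph1, was among the lower ones (log2 ratio -0.85, adjusted p = 7.08e-09, exact binomial test).
Of 10 genes of the NMD pathway, all were read, and the most abundant were Upf3a (77.8 and 65.1 CPM) and Upf1 (27.1 and 33.8 CPM). Of the 7 tested, 0 were called by the exact binomial test, with 0 at an unadjusted p under 0.05. The processed pseudogenes Hnrnpa1l2-ps and Hnrnpa1l2-ps2 had no read in either library.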

How the data were processed

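Long-read RNA-seq was analysed from 2 adrenal gland libraries of 1 group. The deposited tables hold whole-number counts of reads per transcript model, with the authors' class of each model, and model annotations on build mm10, per the file headers and labels. No source used here gives the aligner, the strand handling or the error correction. The annotation was GENCODE M21. Reads of spike-in controls (2.12% and 3.65% of all reads) and of loci outside the annotation (4.35% and 4.98%) were left out of levels. CPM is reads per 1000000 reads of annotated genes.

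Models were matched between the libraries by annotated transcript or by their chain of junctions. Libraries were scaled by TMM (edgeR 4.0.16). Genes with at least 10 reads were compared by a two-sided exact binomial test, and isoform shares and exon inclusion by two-sided Fisher's exact tests (scipy 1.17.1), each adjusted by Benjamini-Hochberg over all genes or exons tested, at 0.05. Log2 ratios used a pseudocount of 1 CPM. Intervals of shares are Wilson 95% intervals, those of folds Clopper-Pearson, and all cover counting error only. Each test was tested on simulated data.

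The genes and lists were chosen with earlier results of these data known. Named were all 10 genes, transcripts with at least 5% of a gene's Known reads in either library, noncoding ones with at least 5 reads, the 3 most read unannotated chains per gene found in both libraries, and exons with at least 20 informative reads in each library and 5% to 95% inclusion. An exon and a transcript that meet this rule are not reported here. Of the hnRNP list the 4 most abundant were named, and of the NMD list 2. The comparison of short exons over all genes was added after the Hnrnpk models were seen. Total and DESeq2 scaling, other classes and minimums, and leaving out a library were tried as alternatives.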

Additional observations from a re-analysis of the deposited data

Results flagged for a closer look

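Loci on the strand opposite to an hnRNP gene, which the tables list apart from the gene, had more than 3 reads in both libraries at 4 of the 10 genes. At Hnrnpl they held 95 reads in replicate 1 and 39 in replicate 2, against 121 and 61 reads of the gene itself. Most came from a 1-exon model inside the last exon of the gene, at chr7:28821848-28822209 with 79 reads in replicate 1 and chr7:28821848-28822240 with 35 reads in replicate 2, both starting at the edge of that exon. At Hnrnpu they held 18 and 33 reads, at Hnrnpc 29 and 16, and at Hnrnpk 7 and 22. All of these reads at the 4 genes were in 1-exon models. At Hnrnpk the most read, with 16 reads in replicate 2, fills chr13:58392122-58392416 and begins and ends at exon edges of the gene. No source used here gives the strand handling, so reads of a gene and of the opposite strand cannot be told apart. The annotated genes Cox20 (159 and 84 reads) and Rmi1 (24 and 3 reads) also overlap Hnrnpu and Hnrnpk on the opposite strand and are counted apart.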

How the results depend on the processing

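The call of Hnrnpa2b1 reversed with full-length reads only (log2 ratio -0.56, against 0.65 with all reads), and its mean level fell below that of Hnrnpk (445 and 545 per 1000000). The mean of Hnrnph1 was then 18.6, against 41.2 CPM with all reads, and it remained the lowest. The number of hnRNP genes called was 2 or 3 under each scaling, minimum, thinning and class setting run, of 1383 genes called in all (994 to 1391 under the same settings). The count of 20 unannotated chains found in both libraries became 32 with 1 read in each library, 13 with at least 5 reads in 1 library and 10 when both ends also had to lie within 100 bases. The counts of 0 for leading isoforms and alternative exons stayed 0 under the alternatives run, including a minimum of 10 informative reads chosen after seeing the data. With 2 libraries, leaving out 1 returns the value of the other, as printed for each gene. No paired analysis was possible because there is 1 group. Depth limits Hnrnph1 and Hnrnpa3, with 4 and 15 full-length reads in replicate 2.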
